A study of Mus musculus with 6 samples.

Results

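Tbx2 and Tbx4 encode T-box transcription factors and lie close together on mouse chromosome 11, with 1 annotated gene between them. They were 2 of the 99 genes of the deposited table. The pair was picked by gene name from the comparison of treated with untreated cells, because the Tbx2 level was lower after treatment while the Tbx4 level was close to the same. Differences between the 2 groups are therefore given for both genes as a description, with no p-value. The cells were B16F10, an established mouse melanoma line labelled wild type, grown in medium with fetal bovine serum. One group of 3 libraries came from cells with no treatment, and the other 3 came from cells kept with MTyr-OANPs for 48 h. The labels do not expand the code MTyr-OANPs and name no vehicle group, so an effect of handling and one of the agent cannot be told apart. The sample titles give a time for the treated cells only, so time in culture may also differ between the groups. The labels do not say how the replicates were separated, so the spread between libraries may be technical. In RNA from a whole culture, fewer cells that express a gene and less of its RNA per cell cannot be told apart.

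T-box factors bind DNA through a shared domain, the T-box, and switch target genes on or off in the developing embryo. Tbx2 acts mostly as a repressor. In melanoma cells it is known for holding back senescence, by repressing the cell cycle inhibitor gene Cdkn1a, and in fibroblasts for repressing Cdkn2a. In melanocytes its own gene is known as a target of the pigment cell regulator Mitf. Tbx4 is known for its part in the outgrowth of the hindlimb and of the lung. The pair arose with Tbx3 and Tbx5 from the duplication of an older pair of neighbours.

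Tbx2 (ENSMUSG00000000093) spans chr11:85832551-85841948 on the plus strand and Tbx4 (ENSMUSG00000000094) spans chr11:85886422-85916097 on the same strand (GRCm38). The annotation gives Tbx2 a single transcript with 7 exons and 3626 bases, and gives Tbx4 3 transcripts of 3153, 3011 and 2959 bases with starts of their own. The starts of the 2 genes are 53.9 kb apart. The gap between them is 44.5 kb and holds 1 annotated gene, Gm11444, on the opposite strand and annotated as protein coding. The noncoding gene 2610027K06Rik lies upstream of Tbx2 on the opposite strand, so it points away from Tbx2, with 327 bases between the annotated starts of both genes. No exon of either gene overlaps an exon of another gene.

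**Figure D1:**
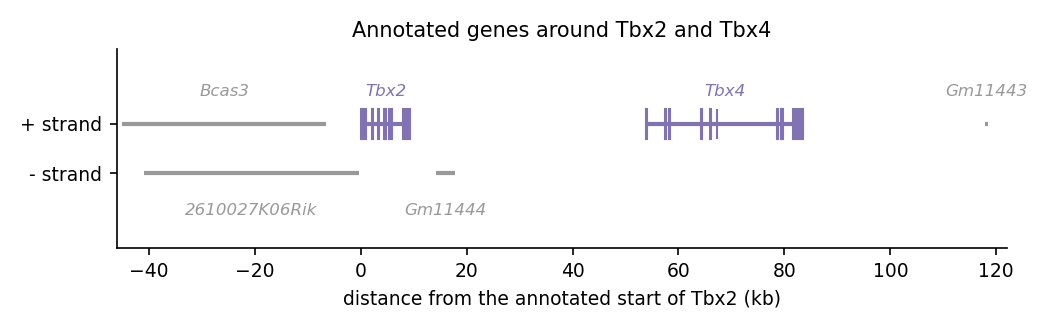
Annotated genes around Tbx2 and Tbx4, by distance in kb from the start of Tbx2 (horizontal axis) and by strand (vertical axis). Boxes are exons of the 2 genes described, grey lines are genes not analysed here, and Bcas3 runs on past the left edge. The starts of Tbx2 and Tbx4 lie 53.9 kb apart.

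Since the genes are related, it was checked whether sequencing reads could pass from one to the other. The stretches below are the most alike 150 bases, the length of 1 read, of the 2 coding sequences when compared without gaps. Both lie at the start of the T-box. The Tbx2 stretch runs over exons 1 and 2 (chr11:85833430-85834697 with the intron between) and the Tbx4 stretch over exons 3 and 4 of its longest transcript (chr11:85890880-85898570 with the intron between). They were read 5′ to 3′ from GENCODE M21 transcripts, and capitals mark bases that differ.
Tbx2: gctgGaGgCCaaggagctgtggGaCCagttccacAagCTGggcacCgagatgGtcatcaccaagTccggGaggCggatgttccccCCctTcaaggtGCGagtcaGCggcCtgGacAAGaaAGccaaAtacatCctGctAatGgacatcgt
Tbx4: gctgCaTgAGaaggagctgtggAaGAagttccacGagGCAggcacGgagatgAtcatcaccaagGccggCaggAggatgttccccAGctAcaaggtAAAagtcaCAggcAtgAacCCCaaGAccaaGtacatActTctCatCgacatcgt
Even here the genes differed at 36 of 150 bases (76.0% identical), of which 15 were at the last base of a codon. The longest run that the coding sequences shared was 12 bases. No run of 31 bases was common to transcripts of both genes. Of the 3596 different runs of 31 bases in Tbx2, 4 occurred in transcripts of other genes, and of the 3368 in Tbx4, 24 did, shares of 0.111 and 0.713%.

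Tbx2 was one of the higher genes of the table in untreated cells and stood far lower after treatment. FPKM, fragments per kilobase of exon scaled to the depth of the library, was 59.0, 61.7 and 59.2 in untreated libraries 1, 2 and 3. It was 16.9, 16.1 and 17.1 in treated libraries 1, 2 and 3. All 3 treated values lay far below all 3 untreated ones. For comparison, 84.9% of the 53 genes tested had groups without overlap (tested genes are those whose mean FPKM reached 1), and 45.3% had such groups with the treated one lower. The means were 59.9 ± 1.5 FPKM untreated and 16.7 ± 0.536 treated (SD, n = 3 each), a 3.59-fold lower level and a log2 fold change of -1.84 (SE 0.03). In the order of log2 fold changes of the 53 genes, Tbx2 stood at place 4 from the lowest. The counts behind these levels were 17813, 17221 and 17042 untreated and 4119, 4958 and 5295 treated. Tbx2 took 4.33, 4.51 and 4.36% of the counts of the 99 genes in untreated libraries 1, 2 and 3, and 1.23, 1.18 and 1.26% in treated libraries 1, 2 and 3.

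Tbx4 had a lower level that was nearly the same in both groups. Its FPKM was 11.76, 11.35 and 11.05 in untreated libraries 1, 2 and 3 and 11.18, 11.26 and 10.93 in treated libraries 1, 2 and 3. The groups overlapped: 2 of the treated libraries lay between the lowest and the highest untreated library, and treated library 3 lay just below them. The means were 11.4 ± 0.361 untreated and 11.1 ± 0.171 treated FPKM (SD, n = 3 each). The log2 fold change was -0.03 (SE 0.03), and it turned to 0.10 with TMM scaling and to 0.030 with DESeq2 size factors. Tbx4 was the middle gene in the order of log2 fold changes, at place 27 of 53, so its own value is also the median of the tested genes. The counts were 3335, 2975 and 2984 untreated and 2563, 3254 and 3171 treated. They are lowest in treated library 1, the library of the lowest depth, which on the FPKM scale is the middle one of its group.

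**Figure D2:**
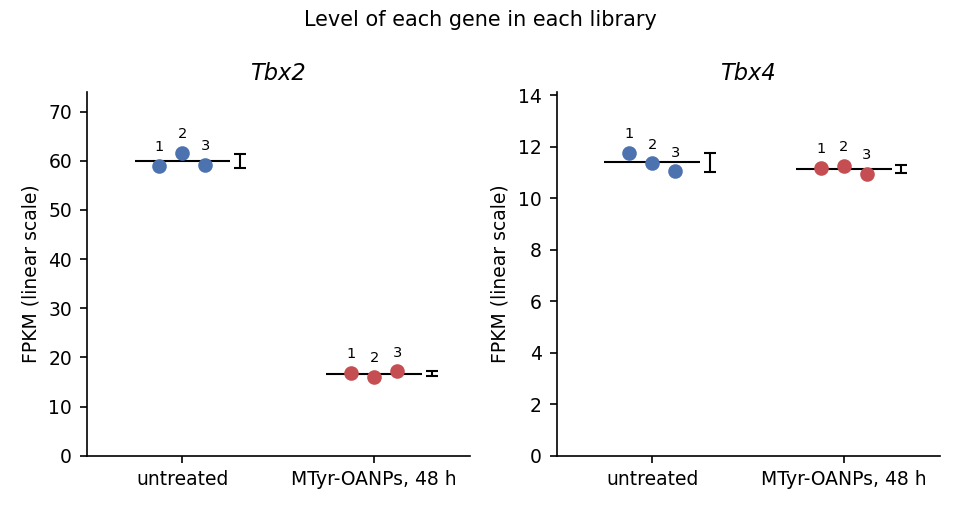
FPKM of Tbx2 (left) and Tbx4 (right) in each library, on linear axes that start at 0 and differ between panels. Numbers are replicates, lines are group means and bars show the SD (n = 3). Tbx2 goes from 59.9 to 16.7 FPKM while the Tbx4 groups overlap near 11.4 and 11.1 FPKM.

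Set against each other within a library, where the scaling between libraries cancels, the pair differed between the groups by about as much as Tbx2 alone. That follows from picking a pair in which Tbx4 stayed level, so it is no separate result. The FPKM of Tbx2 was 5.01, 5.43 and 5.36 times that of Tbx4 in untreated libraries 1, 2 and 3. In treated libraries 1, 2 and 3 it was 1.51, 1.43 and 1.57 times. Tbx2 thus stayed above Tbx4 in all 6 libraries. The mean ratio was 5.27 ± 0.224 untreated and 1.5 ± 0.0691 treated (SD, n = 3 each), a change of -1.81 on the log2 scale (SE 0.05), or a 3.51-fold lower ratio. The ratio also depends on the length by which the authors divided. That length was the union of all annotated exons, 3626 bases for Tbx2 and 3401 for Tbx4, and no single Tbx4 transcript is that long. Dividing by the longest Tbx4 transcript would put the mean ratios at 4.88 and 1.39, and dividing by the shortest at 4.58 and 1.31. The files give 1 value per gene, so the share of each Tbx4 transcript was not measured.

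**Figure D3:**
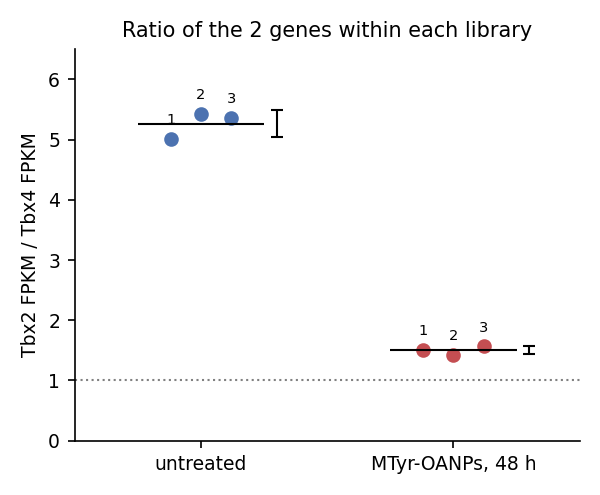
FPKM of Tbx2 divided by FPKM of Tbx4 in each library (vertical axis, from 0), for untreated and treated cells. Numbers are replicates, black lines are means, bars show the SD (n = 3) and the dotted line marks equal levels. The ratio lies between 5.01 and 5.43 untreated and between 1.43 and 1.57 treated.

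Both genes varied less between replicates than the middle tested gene. The coefficient of variation of Tbx2 was 2.5% untreated and 3.21% treated, and that of Tbx4 was 3.17% and 1.53%. The medians over the 53 genes were 4.56% and 4.26%. Counted from the lowest, Tbx2 stood at place 9 untreated and 19 treated, and Tbx4 at 12 and 6. The 53 genes include genes of much lower level, and genes of like level were not compared alone. Counting error alone would give 0.749 to 0.766% for Tbx2 in untreated and 1.37 to 1.56% in treated libraries, or 1.5 to 1.53% and 2.75 to 3.12% if 4 counts stand for 1 event. All of these are below the observed values. For Tbx4 it would give 1.73 to 1.83% untreated, below the observed value, and 1.75 to 1.98% treated, above it. With 4 counts to an event, the Tbx4 figures become 3.46 to 3.67% and 3.51 to 3.95%, both above the observed values. Most counts of Tbx2 and Tbx4 are not multiples of 4, so a fixed unit of 4 counts does not hold for them. A coefficient of variation from 3 libraries is imprecise, and these differences were not tested.

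By level, Tbx2 held rank 8 or 9 of the 53 genes in untreated libraries and rank 17 to 19 in treated ones, while Tbx4 held ranks 26 to 29 and then 25 to 27. In mean untreated FPKM, Tbx2 stood between Cox5a, a subunit of cytochrome c oxidase (68.1 ± 3.65 FPKM, SD, n = 3), and Gmpr, a guanosine monophosphate reductase (60.0 ± 3.36), on one side and Gnai3, a G protein subunit (47.6 ± 0.787), on the other. The untreated values of Tbx2 and Gmpr overlapped, and those of Tbx2 did not overlap those of Cox5a or Gnai3. Around Tbx4 stood Tbrg4, Hddc2 and Slc22a18, at 13.0 ± 1.33, 11.7 ± 0.396 and 10.9 ± 1.23 FPKM (SD, n = 3 each). Their untreated values overlapped those of Tbx4, so the order of these 4 genes is not settled by the data.

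The genes most like each of the pair were found over the 6 libraries, from log2 FPKM relative to a gene's own untreated mean, by the root mean square difference (in log2 units) from the profile of Tbx2 or Tbx4. For Tbx2 the closest of 51 genes were Acvrl1, an activin receptor-like kinase gene (0.30), Arvcf, a catenin of cell junctions (0.31), and Cav2, a caveolin (0.34). None followed it closely: the log2 fold changes were -1.50, -2.22 and -1.37, against -1.84 for Tbx2. For Tbx4 the closest were the tyrosine kinase gene Fer (0.04), the activin receptor gene Acvr1b (0.07) and Trappc10, of a vesicle trafficking complex (0.09). The median difference over the 51 genes was 1.31 from Tbx2 and 0.38 from Tbx4, and Tbx2 and Tbx4 differed from each other by 1.28. These 3 neighbours of Tbx2 lie on chromosomes 15, 16 and 6 and those of Tbx4 on chromosomes 17, 15 and 10, so no nearest gene by profile shares their chromosome.

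**Figure D4:**
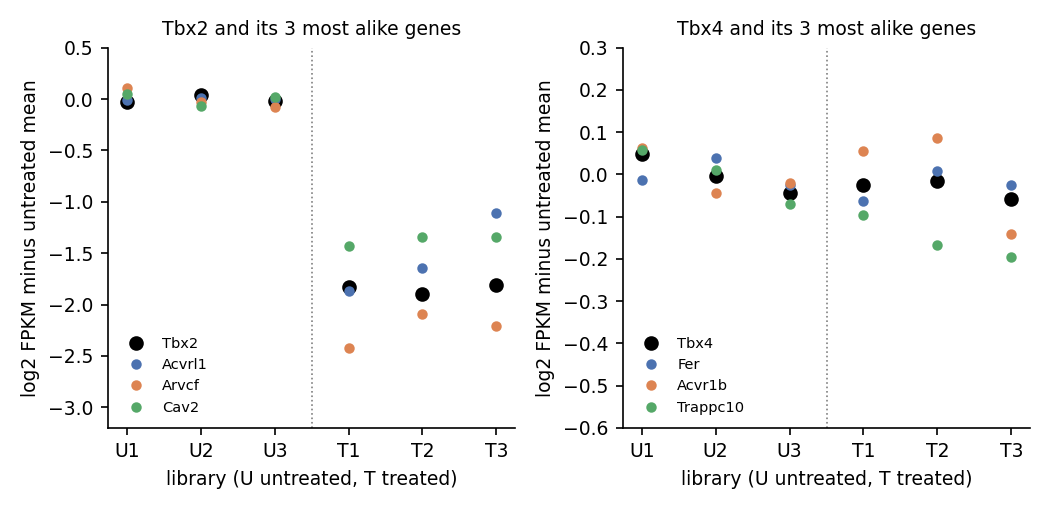
Log2 FPKM minus the gene's untreated mean (vertical axis, scales differ) in untreated (U) and treated (T) libraries, for Tbx2 (left, black) and Tbx4 (right, black) and the 3 genes most like each. The treated Tbx2 values lie between those of its 3 neighbours, and Fer stays closest to Tbx4, with a root mean square difference of 0.04.

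Few genes around Tbx2 in its pathways were among the 99. Cdh1, the E-cadherin gene and a reported target of repression by Tbx2, was the single member present of a list of 25 reported targets and partners. It was barely detected, with counts of 0, 12 and 4 in untreated and 8, 8 and 16 in treated libraries 1, 2 and 3. These groups overlapped, and Cdh1 did not pass in edgeR with no FPKM minimum (adjusted p = 0.61). Cdkn1a, Cdkn2a and Mitf were not analysed here.

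Of 53 senescence and cell cycle genes, 4 were tested, and 3 passed as higher and 1 as lower after treatment. For comparison, 37.7% of all tested genes passed as higher and 45.3% as lower (83.0% in either direction). Ccnd2, a D-type cyclin, had 74.0 ± 2.94 FPKM untreated and 100.8 ± 3.4 treated (SD, n = 3 each), a 1.36-fold rise (edgeR adjusted p = 1.1e-09). Mnt, a repressor that pairs with Max, rose 1.43-fold (edgeR adjusted p = 4.1e-07), and Klf6, a zinc finger factor, rose 1.30-fold (edgeR adjusted p = 3.4e-07). Cdc45, a part of the replicative helicase, fell 2.05-fold (edgeR adjusted p = 1.8e-14). The median log2 fold change of the 4 genes was 0.41, against -0.03 for all tested genes. These 4 genes are a small part of a list chosen with earlier results of these data known. Their median therefore does not describe the list.

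BMP signals induce Tbx2 in several embryonic tissues. Of 37 BMP and TGF-beta genes, 2 were tested. Acvrl1 fell 2.83-fold (edgeR adjusted p = 3.5e-11), from 10.0 ± 0.0848 FPKM untreated to 3.53 ± 0.991 treated (SD, n = 3 each). Its log2 fold change ran from -1.75 to -1.35 when 1 library was left out. Acvr1b, at 5.18 ± 0.202 and 5.19 ± 0.433 FPKM (SD, n = 3 each), did not pass (edgeR adjusted p = 0.98). Of 52 Wnt genes, 3 were in the table and 2 were tested. The ligand gene Wnt3 had a count of 4 in treated library 1 and 0 in the other 5 libraries. Wnt9a, a ligand, rose 6.55-fold (edgeR adjusted p = 2.2e-15). Axin2, an inhibitor that Wnt signals induce, fell 1.33-fold (edgeR adjusted p = 0.012). The Axin2 call was lost with TMM scaling (edgeR adjusted p = 0.10) and without untreated library 2, treated library 1 or treated library 2 (edgeR adjusted p = 0.052, 0.052 and 0.063).

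**Figure D5:**
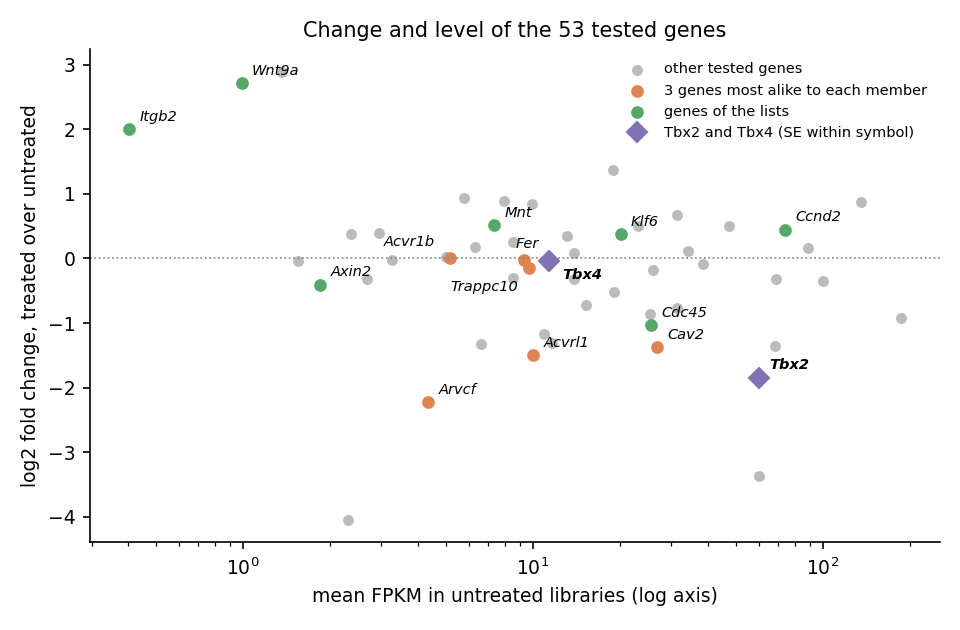
Log2 fold change after treatment (vertical axis) against mean untreated FPKM (horizontal log axis) for the 53 tested genes. Tbx2 has a log2 fold change of -1.84 at 59.9 FPKM and Tbx4 one of -0.03 at 11.4 FPKM, and coloured points are the genes named in the text for their profile or their list.

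None of the 16 melanocyte markers was among the 99 genes, so the label of the cells was not checked against them. Of 12 fibroblast markers Fap was present, with a count of 15 in untreated library 3 and 0 in the other 5 libraries. Of 10 leukocyte markers Lck and Itgb2 were present, and their summed FPKM was 0.490 to 0.833 in untreated and 2.65 to 3.23 in treated libraries. Their part in the Tbx2 difference was not tested. Counts over the 99 genes ran from 334160 to 421423 per library, and the library sizes implied by counts and FPKM (in counts) from 67441277 to 85268782, with treated library 1 the lowest. The 99 genes thus hold a small part of each library, and the shares and ranks given here describe these genes only.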

How the data were processed

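Poly(A) RNA was sequenced in 6 libraries as paired reads of 150 bases on a NovaSeq instrument, per the labels' protocols. For each gene and library the authors deposited a count (whole numbers) and an FPKM value, per the file headers. CASAVA 1.4 and mm9 stand in the submitters' processing notes, but both ends of 86 of the 99 genes, Tbx2 and Tbx4 included, match GENCODE M21 on GRCm38, which is used here. The aligner, counting tool and strand setting were not given in the sources used here. In 56 of 59 genes with counts of at least 50, the FPKM divisor lay within 1% of the length of all annotated exons joined. Of 41 low values from 1 to 20, 30 were multiples of 4, so a count may not be 1 read pair.

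Library sizes were taken from counts, FPKM and that length. Group differences were tested with edgeR 4.0.16 in R 4.3.3, by the quasi-likelihood method on the counts of 53 genes whose mean FPKM reached 1, two-sided, with Benjamini-Hochberg adjustment over these genes and a threshold of 0.05. A standard error comes from log2 FPKM within groups. Alternatives were TMM, DESeq2 size factors, table totals, DESeq2 1.42.0, limma 3.58.1 on log2(FPKM + 1) and log2(FPKM + 0.1), other FPKM minimums, blocking by replicate number, and dropping each library in turn. The pair and the gene lists were chosen with earlier results of these data known. Genes named beside the pair are list genes with a count, the 3 tested genes nearest in profile and in position, and the nearest in level. The counting errors quoted cover counting error only.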

Additional observations from a re-analysis of the deposited data

How the results depend on the processing

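The log2 fold change of Tbx2, -1.84, kept its direction in all 15 alternatives and moved by less than the spread between replicates in 12 of them. It was -1.71 with TMM scaling, -1.78 with DESeq2 size factors and -1.78 on log2(FPKM + 1), and -1.86 to -1.82 when 1 library was left out. That of Tbx4, -0.03, became 0.10 with TMM scaling and 0.030 with DESeq2 size factors, and ran from -0.06 to -0.01 when 1 library was left out. TMM raised the median of the 53 tested genes by 0.14, and Tbx4 is itself that median gene. Genes passing as higher numbered 18 to 21 against 20, and genes passing as lower 20 to 24 against 24, over the alternatives on the same 53 genes. With the FPKM minimum at 5 they numbered 16 and 19 of 42 genes, and with no minimum 23 and 28 of 83. The replicate block gave 21 and 24, with -1.84 for Tbx2 and -0.03 for Tbx4. Between the groups, same-numbered libraries correlated at 0.31, 0.40 and -0.01 in their deviations from group means. Libraries with unlike numbers correlated at -0.40 to 0.13, and 4 of 6 libraries correlated best with their own number. Such a check with 3 libraries a group cannot decide whether the numbers mark pairs, and the main fit was unpaired. With 3 libraries a group and 99 genes, differences in Tbx4 smaller than the shifts between scalings cannot be resolved.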

Other observations

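The table holds 23 genes of chromosome 11, of which 11 besides Tbx2 and Tbx4 were tested. Of these, 5 passed as higher, 4 as lower and 2 did not pass. Over all tested genes 37.7% passed as higher and 45.3% as lower (83.0% together), so these shares are near the background. Their log2 fold changes ran from -1.33 to 2.89, with a median of -0.029, against -0.034 over all tested genes. The set of all tested genes includes these genes, and its median is the value of Tbx4. The nearest tested genes lie megabases away. Scpep1, a serine carboxypeptidase 3.09 Mb from the start of Tbx2, rose 1.83-fold (edgeR adjusted p = 1.2e-15). Dgke, a diacylglycerol kinase 3.20 Mb away, had 3.27 ± 0.630 and 3.21 ± 0.525 FPKM (SD, n = 3 each) and did not pass (edgeR adjusted p = 0.85). Ngfr, a receptor for neurotrophins 9.74 Mb away, rose 7.41-fold (edgeR adjusted p = 1.0e-17).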
